A study of Danio rerio with 6 samples.

Results

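The genes described here build and steer the actin cytoskeleton. They were taken by symbol, as the Ensembl genes whose names begin with those of the Arp2/3 complex, beta-actins, profilins, cofilins, coronins, capping proteins, Wiskott-Aldrich syndrome family proteins and their partners, the WAVE complex, formins, Ena/VASP proteins, plastin and small GTPases such as Rac and Cdc42 with Cdc42 effectors. The rule found 96 genes under 95 symbols among 32520 Ensembl genes, since rac1l stands for a pair of them. A filter on low counts left 73 of them for testing and removed 23, and 7 of those 23 had 0 counts in every library. The matches abi3bpa and abi3bpb share only the start of a symbol with the Abi genes and lie outside the actin machinery, and neither was tested. None of the Ensembl genes carried the symbol dock2, nckap1l or fmnl1b, so these genes are not analysed here.

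Neutrophils crawl by growing a branched actin network at the front of the cell. Small GTPases such as Rac and Cdc42, active when bound to GTP, recruit the WAVE complex and the Wiskott-Aldrich syndrome proteins, which switch on the Arp2/3 complex to start new filaments as branches of old ones. Profilin delivers actin monomers, formins and Ena/VASP proteins elongate filaments, capping protein ends their growth, cofilin and coronin take them apart, and plastin binds them into bundles. Several of these proteins exist in a form used mainly by blood cells, among them Rac2, L-plastin and the Wiskott-Aldrich syndrome protein, known from human immune deficiency or from leukocyte biology.

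Polyadenylated RNA was sequenced from zebrafish cells that the labels call neutrophils, in 3 control and 3 znf711 morpholino libraries labelled as biological replicates. All carried Tg(mpx:eGFP), in which the mpx promoter, active mainly in neutrophils, drives green fluorescent protein, and all were taken on day 2, which the design text gives as 48 hours post-fertilisation for GFP-positive cells. The controls have the genotype WT and the treatment control, with no statement of what they were injected with, and the others have the genotype znf711 knockdown and the treatment znf711 MO. A morpholino is an antisense oligonucleotide that blocks translation or splicing of its target, znf711 encodes a zinc finger transcription factor, and the design text names a znf711 mutant line in its place. Whether several embryos were pooled for a library cannot be read from the labels, so p-values measure only the spread between these samples, which may be technical.

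Library totals were 7181804 to 9311439 counts in controls and 1629804, 12093109 and 9550796 counts in morpholino replicates 1 to 3. Morpholino replicate 1 stood apart, with 8041 Ensembl genes detected where the remaining 5 libraries had 13434 to 16074. A count of 0, which allows up to 3 counts, corresponds to at most 1.84 CPM there and at most 0.248 to 0.418 CPM elsewhere, for counting error only. Levels below are CPM, counts adjusted for the size of each library. Gene levels are after TMM scaling unless stated otherwise, and sums over cell type markers are without it. Levels are given for control replicates 1, 2 and 3, then for morpholino replicates 1, 2 and 3. The targeted gene znf711 had 348, 134 and 60 counts in the controls and 1, 120 and 182 counts with the morpholino (log2 fold change -1.17 ± 1.29, SE), and since a morpholino need not lower its transcript these counts do not check the labels. The gene behind the reporter, mpx, was at 520.4, 2926 and 2703 CPM in controls and 559, 2731 and 5068 CPM in the morpholino group, lowest in replicate 1 of each group. The summed level of 13 neutrophil marker rows ranged from 2507 to 13832 CPM in controls and from 3239 to 27187 CPM in the morpholino group. Morpholino replicate 3 held the highest sum, and morpholino replicate 2 was at 12841 CPM. Of the 12 tested neutrophil rows 10 were above and 2 below 0, with a median log2 fold change of 0.51 and 0 called. Among all rows 44.3% were above 0. Of 3 general leukocyte markers (ptprc, spi1b and laptm5) 1 was above and 2 were below 0, with a median of -0.03. They summed to 366 to 948 CPM in controls and 472 to 1092 CPM in the morpholino group. The sum of 8 erythroid markers ranged from 3236 to 15556 CPM in controls and from 2282 to 19319 CPM in the morpholino group. The 8 connective tissue markers all had negative fold changes, with 4 of 8 at an unadjusted edgeR p under 0.05 (1.05% of all rows) and 0 called. They summed to 638 to 1313 CPM in controls and 477 to 518 CPM in the morpholino group. All 6 tested endothelial markers were also below 0, with sums of 164 to 255 CPM in controls and 84.5 to 178 CPM in the morpholino group. Of 7 tested muscle markers 5 were above 0, with a median log2 fold change of 1.94. At an unadjusted edgeR p under 0.05 there were 2 of 7 (1.05% of all rows). In edgeR 0 were called and in DESeq2 1 (0.685% of rows with an adjusted p). The sums were 287 to 478 CPM in controls and 412 to 572 CPM in the morpholino group. Macrophage marker rows summed to 651 to 2079 CPM and 551 to 2914 CPM, with 8 of 11 tested above 0, and 9 nerve markers to 1232 to 2875 CPM and 1474 to 3302 CPM. The part of these cells in the values below was not tested. In such bulk RNA, fewer cells of a type and less RNA per cell cannot be told apart.

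The actin genes were abundant. Together the 96 genes held 2.27%, 4.59% and 4.38% of all counts in the controls and 2.37%, 4.75% and 4.39% in the morpholino group. Without actb2 the shares were 1.26%, 2.22% and 2.07%, and 1.38%, 2.59% and 2.36%. The groups overlapped, and replicate 1 had the lowest share in each of them.

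No actin gene passed the test between the morpholino group and the controls. In edgeR's quasi-likelihood test, 0 of the 73 genes tested had a Benjamini-Hochberg adjusted p under 0.05, and 0 of 16637 rows did so (0% of all rows). At an unadjusted p under 0.05 there were also 0 of the 73 genes, against 174 rows, or 1.05% of all rows (0.583% higher and 0.463% lower). DESeq2 called 140 of the 20450 rows with an adjusted p (0.685%), and 0 actin genes, the lowest adjusted p among them being 0.353. In limma-voom 0 rows were called. There 3 of the 73 genes (1 higher and 2 lower) and 365 of 16637 rows had an unadjusted p under 0.05. In edgeR with library totals alone, 2 of the 73 genes (1 higher and 1 lower) and 200 of 16637 rows did. Among the actin genes 43 had a positive and 30 a negative log2 fold change, so 58.9% were above 0, as were 44.3% of all rows, and the medians were 0.08 and -0.12. The actin median was -0.10 without control replicate 1 and -0.16 without morpholino replicate 2, and with library totals alone it was 0.22, with 49 genes above and 24 below 0. A log2 fold change beyond 1 in size was seen in 9 actin genes, or 12.3%, against 31.4% of all rows, and the median standard error was 0.76 against 1.48 for all rows. The standard errors leave room for differences in either direction, and the log2 fold change of actb2, the most abundant of these genes, was -0.31 ± 0.54 (SE).

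**Figure D1:**
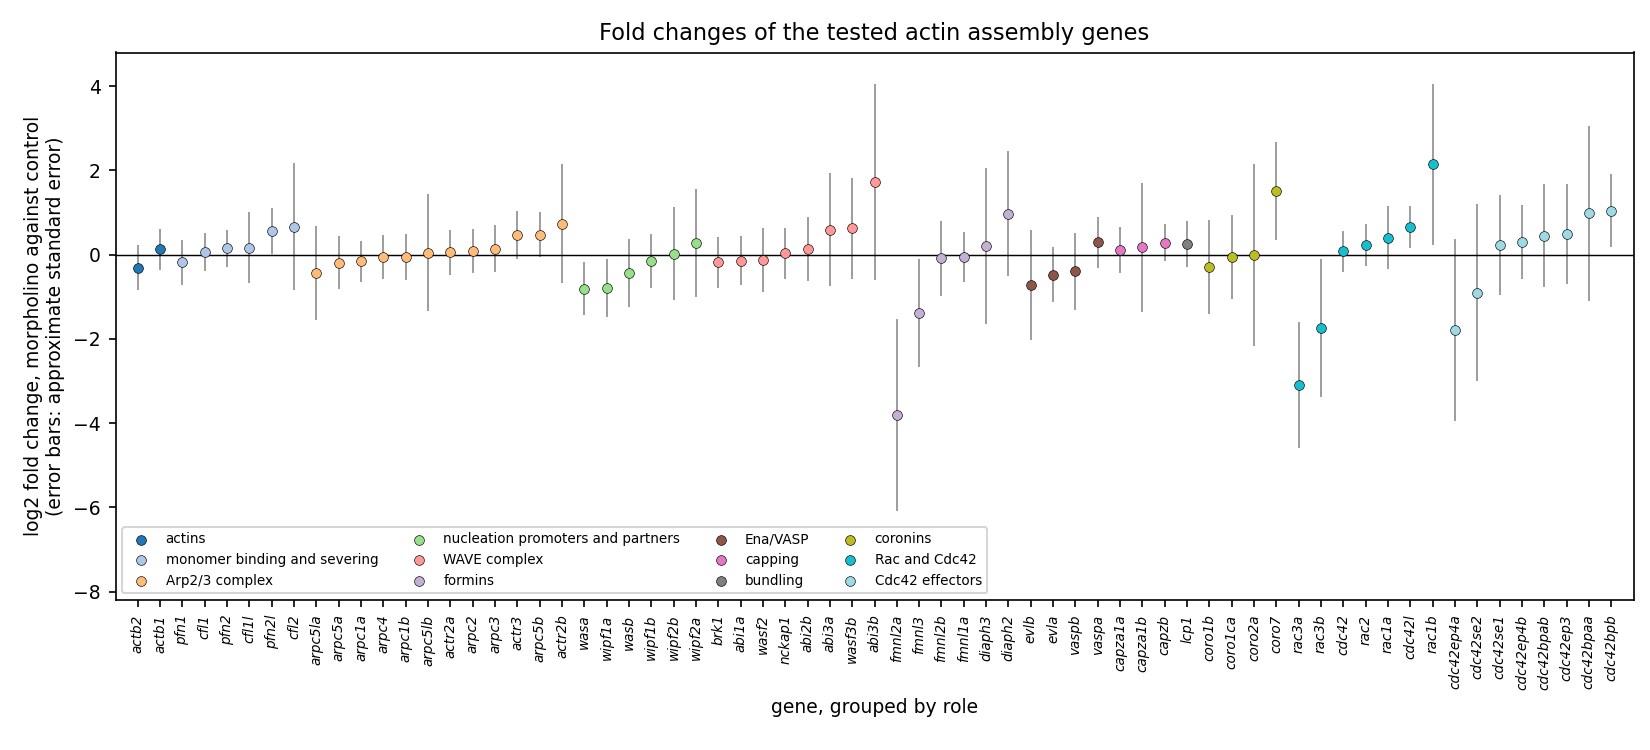
Log2 fold change of 67 tested actin genes in the morpholino group against controls, by role, with bars of 1 standard error from edgeR; none of them passed. Positive and negative values occur side by side within most roles, and the widest bars belong to genes of low count such as fmnl2a and abi3b.

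By mean CPM over all libraries, the beta-actin gene actb2 and the profilin gene pfn1 had the most abundant transcripts of the set. The beta-actin gene actb2 (ENSDARG00000037870, GRCz11 chromosome 3, 40526107 to 40529804, minus strand) was at 8584, 27157 and 28762 CPM in controls and 8615, 24476 and 18889 CPM in the morpholino group. Replicate 1 of each group was the low library, the lowest of the other 4 libraries was morpholino replicate 3, and the groups overlapped. Its paralog actb1, like the other genes of this paragraph apart from actb2 and pfn1 chosen after its values were seen, was at 1307, 2924 and 1712 CPM in controls against 1092, 3304 and 2107 CPM. Profilin 1, which hands actin monomers to growing filaments, is encoded by pfn1 (ENSDARG00000088091, GRCz11 chromosome 23, 44580254 to 44605765, plus strand), at 2094, 7465 and 8704 CPM and 3176, 8047 and 4837 CPM, a log2 fold change of -0.19 ± 0.53 (edgeR adjusted p = 0.9999). The pattern over libraries was that of actb2, low in replicate 1 of either group. Cofilin severs old filaments, and the gene cfl1 was at 1032, 1709 and 1895 CPM in controls against 1076, 2231 and 1549.8 CPM, while cfl1l, a cofilin-like gene, was at 22.5, 208 and 368 CPM in controls against 101, 394 and 172 CPM. Control replicate 1 held the least cfl1l of all libraries. By contrast pfn2, a second profilin, was at 323, 272 and 175 CPM in controls against 306, 274 and 277 CPM and was highest in replicate 1 of each group. All 6 genes of monomer binding and severing were tested, 5 were above and 1 below 0, and 0 passed.

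**Figure D2:**
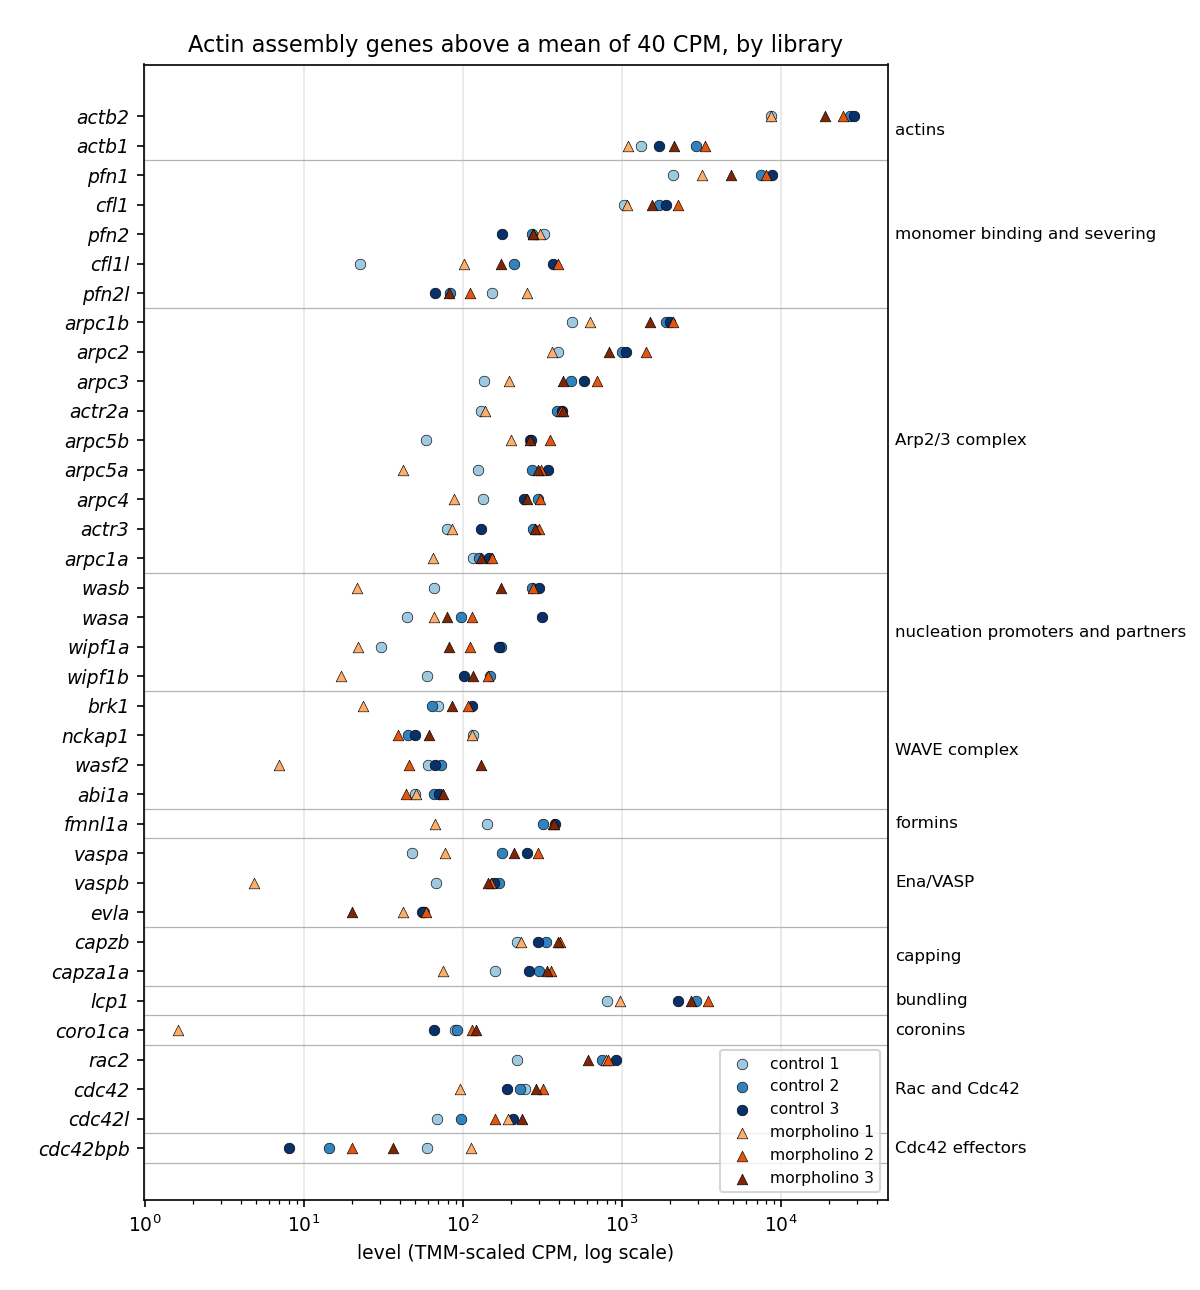
Level (TMM-scaled CPM, log axis) of 36 tested actin genes with a mean above 40 CPM, grouped by role, with 1 point per library, circles for controls, triangles for the morpholino group and the lightest shade for replicate 1. For most abundant genes the replicate 1 points lie to the left of the others, as for actb2 at 8584 and 8615 CPM.

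The Arp2/3 complex of actin-related proteins was present with every subunit, in unequal amounts of transcript. Of its 14 genes 12 were tested, 7 above and 5 below 0, with a median log2 fold change of 0.05 and 0 calls. Per kilobase of the listed gene length, the summed level of the ArpC1 genes was highest in 5 libraries, at 239.5 to 832 CPM per kilobase over all 6, and ArpC2 was highest in morpholino replicate 2, at 840.1. By deposited FPKM the ArpC1 genes were highest in all 6 libraries, at 415 to 1164. The lowest subunit depended on the length used. By listed length it was ArpC4 in all 6 libraries, at 18.5 to 63.9 CPM per kilobase. By FPKM it was Arp2 in 5 libraries and Arp3 in 1, with ArpC4 lowest in none. The ArpC4 sum takes arpc4l at 0 counts in every library and leaves out unnamed models overlapping arpc4l on an alternate scaffold. Those models had 29, 102 and 87 counts in controls against 7, 340 and 119 with the morpholino, and 1, 7 and 5 against 296, 72 and 18. Whether ArpC4 stays lowest with them was not tested. The actin-related subunits Arp2 and Arp3, which mimic the first pair of subunits of a new filament, were at 28.9 to 103 and 44.1 to 166 CPM per kilobase, and at 33.0 to 118 and 52.2 to 168 FPKM.

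Among subunits known for leukocyte use, arpc1b (ENSDARG00000027063, GRCz11 chromosome 3, 40809011 to 40820612, plus strand), the gene of the ArpC1B subunit whose loss causes a human immune deficiency, was at 485, 1889 and 2009.9 CPM in controls and 625, 2099 and 1489.7 CPM in the morpholino group. The log2 fold change was -0.06 ± 0.55, and its sign turned with library totals alone in place of TMM (0.13). The gene arpc5a was at 124, 272 and 344 CPM in controls against 41.9, 310.0 and 296 CPM (-0.19 ± 0.63). Its paralog arpc5b, chosen after its values were seen, was at 58.1, 262 and 267 CPM in controls against 199, 354 and 262 CPM, so morpholino replicate 1 had the lowest arpc5a level of all libraries with an arpc5b level inside the range of the others. Other core genes chosen in the same way, arpc2 and arpc3, were at 398, 1004 and 1053 CPM in controls against 365, 1407 and 824 CPM, and at 135, 477 and 577 CPM in controls against 194, 694 and 423 CPM. The subunit genes arpc1a, arpc4, actr2a and actr3, also chosen after their values were seen, had log2 fold changes of -0.16, -0.06, 0.06 and 0.47. The sparser actr2b, arpc5la and arpc5lb, chosen likewise, were at 0.74 ± 1.42, -0.43 ± 1.12 and 0.05 ± 1.39 on that scale. The groups overlapped for all 12 tested genes. Of all rows 7.44% did not overlap, so a set this small says little. In arpc1b, arpc5a, arpc2 and arpc3 the low libraries were the replicate 1 of both groups.

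The Wiskott-Aldrich syndrome genes, whose proteins activate the Arp2/3 complex, and their wipf1 partner genes had lower means in the morpholino group, within the spread of the libraries. The zebrafish genes wasb (ENSDARG00000026350, GRCz11 chromosome 8, 23560183 to 23578660, minus strand) and wasa (ENSDARG00000015149, GRCz11 chromosome 8, 25629722 to 25643932, plus strand) encode the blood cell activator, whose loss impairs leukocyte migration in humans. For wasb the levels were 65.2, 272 and 299 CPM in controls and 21.5, 276 and 173 CPM with the morpholino, a log2 fold change of -0.43 ± 0.80. For wasa they were 44.3, 96.8 and 312 CPM and 65.5, 114 and 79.5 CPM (-0.81 ± 0.62, unadjusted p = 0.212, adjusted p = 0.9999 in edgeR). Control replicate 3 was the high library for wasa, and without it the log2 fold change was 0.26. The partner genes wipf1a and wipf1b encode proteins that stabilise the Wiskott-Aldrich syndrome protein. They were at 30.5, 174 and 169 CPM in controls against 22, 111 and 81.2 CPM (-0.80 ± 0.69), and at 59.6, 147 and 101 CPM in controls against 17.2, 143 and 116 CPM (-0.15 ± 0.65). Of 7 genes of this role 6 were tested, 2 above and 4 below 0. The groups overlapped for each of them, where 7.44% of all rows did not overlap.

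In the WAVE complex, which relays Rac activity to Arp2/3, 8 of 12 genes were tested, with 5 above and 3 below 0 and none called. The gene wasf2 (ENSDARG00000024209, GRCz11 chromosome 19, 43523690 to 43543128, plus strand), for WAVE2, was at 60.6, 72.2 and 67.1 CPM in controls and 6.98, 46.0 and 129 CPM in the morpholino group, so the 3 controls lay within a narrow range and the 3 morpholino libraries lay below, below and above it. Nap1 is encoded by nckap1, chosen after its values were seen, at 115, 45.1 and 49.6 CPM in controls against 114, 39.2 and 61.2 CPM, with replicate 1 highest in each group. The Abi3 genes were sparse: abi3a had 59, 299 and 37 counts in the controls and 0, 228 and 549 counts with the morpholino, and abi3b had 0, 16 and 0 and 0, 35 and 33.

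In 3 genes all morpholino levels lay below all control levels, and in 0 genes above, which is 4.11% of the 73 genes tested against 7.44% of all rows (5.35% lower and 2.09% higher). All 3 were below 40 CPM in every library. Leaving out 1 library sets 2 against 3. The number of such genes was then 11 without control replicate 1 (14.9% of actin genes, against 15.6% of all rows). It was 4 without control replicate 2 (5.33% against 13.9%) and 7 without control replicate 3 (9.33% against 14.6%). Without morpholino replicates 1, 2 and 3 it was 13 (17.3% against 17%), 7 (9.59% against 17.6%) and 6 (8.11% against 16.2%). The Rac gene rac3a (ENSDARG00000090062, GRCz11 chromosome 3, 36248851 to 36260102, minus strand) had 333, 46 and 121 counts in the controls and 2, 55 and 12 counts with the morpholino, or 39.4, 5.66 and 19.7 CPM against 1.07, 5.16 and 1.165 CPM. Its log2 fold change was -3.09 ± 1.5, with the lowest unadjusted p of the set in edgeR (0.055, adjusted p = 0.9999) and a DESeq2 p of 0.0099 (adjusted p = 0.353). Control replicate 2, at 5.66 CPM, and morpholino replicate 2, at 5.16 CPM, nearly met. The formin gene fmnl2a (ENSDARG00000012586, GRCz11 chromosome 9, 4730398 to 4856767, minus strand) had 46, 22 and 61 counts against 0, 12 and 0. Its fitted log2 fold change of -3.81 ± 2.28 rests on morpholino replicate 2, the only morpholino library with counts. Without that library the value was -8.40 and depends on the prior count. The DESeq2 p of fmnl2a was 0.0305 (adjusted p = 0.534). At an unadjusted DESeq2 p under 0.05 there were 2 of 89 actin genes fitted, rac3a and fmnl2a, against 1706 of 43053 rows. The formin gene fmnl3, chosen after its values were seen, had 173, 182 and 125 counts against 3, 182 and 53, or 20.4, 22.4 and 20.4 CPM against 1.61, 17.1 and 5.14 CPM (-1.39 ± 1.28).

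Formins of the Fmnl class build unbranched filaments, and fmnl1a (ENSDARG00000055713, GRCz11 chromosome 3, 37196258 to 37235300, plus strand), of the class member used mainly by blood cells, was at 142, 317 and 381 CPM in controls and 67.1, 366 and 375 CPM in the morpholino group. Per kilobase it was the highest of the 6 formin genes, all tested, of which 2 were above and 4 below 0. The log2 fold change of fmnl1a was -0.06 ± 0.59, and it turned positive with library totals alone (0.10) and in limma-voom (0.05). The fmnl1a to fmnl3 ratio of deposited FPKM was 6.06 to 16.3 in controls and 18.7 to 63.6 in the morpholino group. Of the 12 pairs of related genes compared in this way, it was the only pair whose ratios did not overlap between the groups, as a description of pairs chosen with the data known. Its denominator fmnl3 did not overlap between the groups either. Of all single rows tested 7.44% did not overlap, and no such share was computed for pairs.

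Ena/VASP proteins keep filament ends growing, and their 4 genes were all tested. The gene vaspa (ENSDARG00000099690, GRCz11 chromosome 10, 323401 to 342564, minus strand) was at 47.9, 175 and 253 CPM in controls and 77.3, 295 and 210.4 CPM in the morpholino group (0.30 ± 0.60). Its paralog vaspb, chosen after its values were seen, was at 67.9, 168 and 156 CPM in controls against 4.83, 149.5 and 143 CPM. Morpholino replicate 1 was the low library, with 9 vaspb counts (95% exact Poisson interval 4.12 to 17.1, for counting error only) where the lowest level of the other 5 libraries would give 127 counts. The FPKM ratio of vaspa to vaspb was 0.88 to 2.02 in controls, 19.9 in morpholino replicate 1, and 2.46 and 1.83 in morpholino replicates 2 and 3. The genes evla and evlb, known in leukocytes from the mammalian EVL protein, were at 56.6, 55.3 and 56.1 CPM in controls against 41.9, 58.6 and 19.9 CPM, and at 42.9, 3.81 and 11.6 CPM in controls against 2.15, 22.9 and 10 CPM. The 3 control levels of evla lay close together and morpholino replicate 3 was the low library, while evlb was uneven in both groups. Of the Ena/VASP genes 1 was above and 3 were below 0, and 0 passed.

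Capping, bundling and disassembly genes likewise overlapped between the groups, where 7.44% of all rows did not. The capping protein subunit gene capzb (ENSDARG00000100252, GRCz11 chromosome 22, 396840 to 410544, plus strand) was at 218, 333 and 296 CPM in controls and 230.2, 407 and 393 CPM in the morpholino group (0.28 ± 0.44), and the 3 capping genes were all above 0. L-plastin, the leukocyte bundling protein encoded by lcp1 (ENSDARG00000023188, GRCz11 chromosome 9, 56251000 to 56272465, minus strand), was at 804, 2922 and 2257 CPM and 974.7, 3446 and 2695 CPM (0.25 ± 0.54). It was lowest in replicate 1 of each group, and its sign turned without control replicate 1 (-0.13) or morpholino replicate 2 (-0.16). Coronins bind the Arp2/3 complex and help to take branches apart, and 4 of 9 coronin genes were tested, 1 above and 3 below 0. The gene coro1ca was at 88.7, 91.5 and 65.8 CPM in controls against 1.61, 113 and 120.0 CPM, and morpholino replicate 1 had 3 counts (0.619 to 8.77) where the lowest of the other libraries would give 122.5 counts. For coro7 the levels were 2.84, 12.3 and 11.3 CPM in controls against 32.2, 11.4 and 32.0 CPM (1.52 ± 1.17, unadjusted p = 0.212), with morpholino replicate 2 inside the control range.

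Coronin 1A is the main coronin of mammalian leukocytes, and its gene coro1a (ENSDARG00000054610, GRCz11 chromosome 3, 30926364 to 30941362, minus strand) had 1 count in control replicate 2 and 0 in the other 5 libraries. An unnamed gene model on an alternate scaffold of chromosome 3, listed from 30926364 to 30945909 on the same strand, begins at the same listed position. That model had 539, 1201 and 736 counts in the controls and 207, 1743 and 806 counts in the morpholino group, or 75.1, 129 and 96.4 CPM and 127, 144 and 84.4 CPM without TMM scaling. All 7 Ensembl genes in a window reaching 50000 bases to each side of coro1a, with coro1a among the 7, had 5 counts or fewer each, summed over the 6 libraries. The model carries no symbol in the files, and no level of coronin 1A is given here. Of the 96 actin genes 22 lie within the span of an alternate scaffold, and 6 of those 22 had 0 or 1 count in every library, against 11 of all 96. Where reads fit both copies, the counts of these genes are uncertain.

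Of the small GTPase genes, those of the Rac and Cdc42 classes are described, and none of them passed. The phagocyte GTPase gene rac2 (ENSDARG00000038010, GRCz11 chromosome 3, 29510818 to 29544039, plus strand), needed for neutrophil migration in zebrafish, was at 219.8, 744 and 920.3 CPM in controls and 789, 816 and 613 CPM in the morpholino group (0.23 ± 0.50). Control replicate 1 was the low library, and without it the log2 fold change was -0.18. The Cdc42 gene cdc42l was at 68.8, 97.6 and 206 CPM in controls against 191, 159 and 235 CPM (0.65 ± 0.50), and an unnamed model overlapping it on an alternate scaffold had 156, 414 and 319 counts in the controls and 4, 996 and 578 with the morpholino. The gene cdc42 itself, chosen after its values were seen, was at 246, 228 and 189 CPM in controls against 95.5, 316 and 289 CPM. The other Rac genes were sparser: rac1a, chosen like rac1b after its values were seen, was at 19.4, 55.0 and 25 CPM in controls against 70.8, 37.4 and 23.7 CPM, and rac1b had 15, 11 and 18 and 0, 111 and 168 counts.

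Cdc42 effectors carry the GTPase signal to filaments and septins, and 8 of 12 were tested, 6 above and 2 below 0. The most abundant per kilobase, cdc42ep3, was at 4.84, 17.7 and 16.2 CPM in controls and 24.2, 21.6 and 8.54 CPM in the morpholino group (0.48 ± 1.19). The Cdc42-binding kinase gene cdc42bpb, chosen after its values were seen, was at 59.7, 14.3 and 7.996 CPM in controls against 113, 19.97 and 36.5 CPM, highest in replicate 1 of each group.

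The replicate 1 libraries differed from the rest of their groups in many actin genes. In control replicate 1 a larger share of actin genes than of all rows was low. In morpholino replicate 1 the shares beyond 2-fold were near those of all rows. With 0.5 CPM added to each level, control replicate 1 was more than 2-fold below the mean of the other controls in 32 of the 73 genes (43.8%, against 27.3% of all rows) and more than 2-fold above it in 14 (19.2% against 20.9%). Morpholino replicate 1 was that far below its group in 40 genes (54.8% against 59.6%) and above it in 12 (16.4% against 16.1%). Of the 14 tested genes known for leukocyte use, 12 were low in control replicate 1 (85.7%). The share was 33.9% in the other actin genes and 27.3% in all rows. The gene evlb was high there, 1 of the 14 (7.14%, against 20.9% of all rows). In morpholino replicate 1, 10 of the 14 were low (71.4%, against 50.8% of the other actin genes and 59.6% of all rows), closer to the share of all rows. High there were 0 of them, against 16.1% of all rows. In both libraries together 20 genes were low (27.4%, against 19.8% of all rows), among them actb2, pfn1, lcp1, arpc1b, wasb, wipf1a and fmnl1a, and 6 were high (8.22% against 5.33%): pfn2l, nckap1, coro1b, cdc42bpb, wasf3b and wipf2b, chosen after their values were seen. On the same scale mpx was at log2 -2.43 in control replicate 1 and -2.80 in morpholino replicate 1. An unnamed model overlapping wasf3b on an alternate scaffold had 124, 349 and 197 counts in controls and 62, 289 and 114 with the morpholino. A further one had 272, 3 and 58 against 60, 289 and 52. Without TMM scaling, control replicate 1 was the lowest control for the former (17.3 CPM) and the highest for the latter (37.9 CPM). The sum of 8 erythroid markers was highest in replicate 1 of each group, at 15556 and 19319 CPM without TMM scaling. A level in morpholino replicate 1 under 0.25 times the lowest of the other 5 libraries was seen in 10 of the 73 genes (13.7%, against 32.2% of all rows), coro1ca, vaspb and wasf2 among them. The part of neutrophil content or of depth in these differences was not tested. Without both libraries, a run chosen after the data were seen, the median log2 fold change of the actin genes was 0.14 and 0 genes passed in edgeR.

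**Figure D3:**
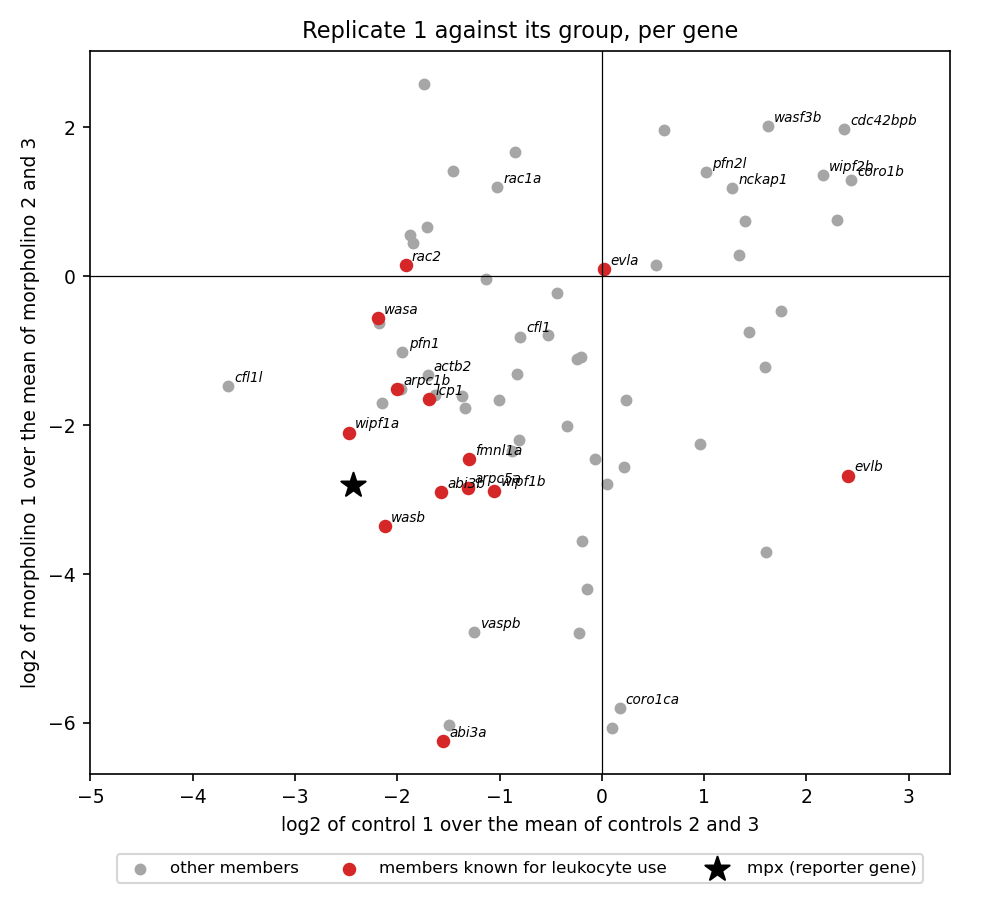
Each point is 1 of 67 tested actin genes, placed by the log2 ratio of control replicate 1 to the mean of controls 2 and 3 (x axis) and of morpholino replicate 1 to the mean of morpholino replicates 2 and 3 (y axis), with 0.5 CPM added to each level. Genes known for leukocyte use (red) lie mostly at the lower left, as does the reporter gene mpx (star) at -2.43 and -2.80, and the 6 genes high in both libraries lie at the upper right.

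The actin genes of highest level per kilobase were a beta-actin, profilin 1, cofilin 1, L-plastin and Arp2/3 subunits. By TMM-scaled CPM per kilobase of listed length the order of means over 6 libraries was actb2 at 2131, lcp1 at 956, pfn1 at 822, cfl1 at 724, arpc1b at 506, arpc3 at 503.3 and arpc2 at 502.5. By deposited FPKM it was actb2 at 8355, pfn1 at 1454, lcp1 at 903, cfl1 at 859 and arpc1b at 781, and 9 of the 10 highest genes were shared. Neighbours such as arpc1b and arpc3 lay far within the spread of the libraries. The length behind the FPKM was shorter than the listed length in 61 of 89 genes with counts, so levels between genes depend on it. Ratios between related genes, all in FPKM, were 4.17 to 14.8 for arpc1b over arpc1a, 4.75 to 15.7 for rac2 over rac1a and 5.75 to 44.2 for pfn1 over pfn2. The wasb to wasa ratio was 1.40 to 4.10 in controls and 0.48, 3.54 and 3.19 with the morpholino, falling under 1 in morpholino replicate 1 alone. The arpc5b to arpc5a ratio was 0.97 to 1.99 in controls and 9.84, 2.36 and 1.83 with the morpholino, and by listed length it was under 1 in 5 of the 6 libraries. Of the 12 pairs, 9 had the same higher member in every library with counts of both by FPKM, and 9, not all of them the same pairs, by listed length.

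**Figure D4:**
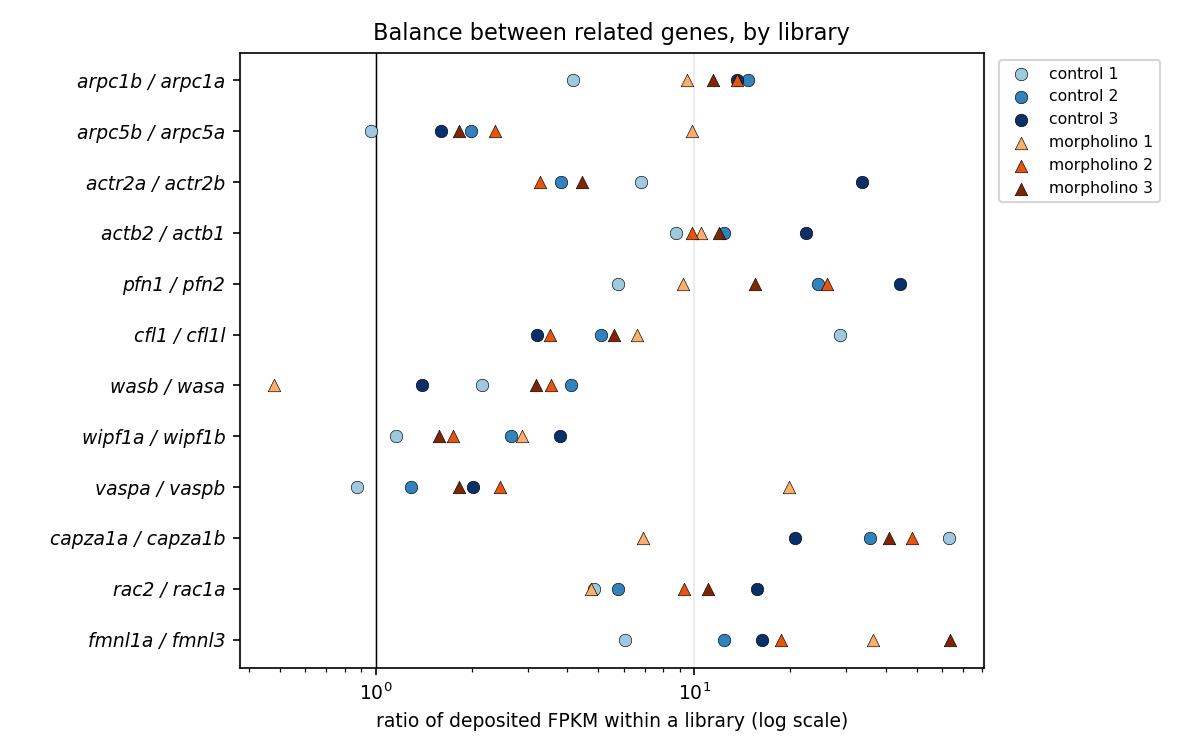
Ratio of deposited FPKM (log axis) between related actin genes, 12 pairs, with 1 point per library and the line at 1 marking equal levels. Ratios such as arpc1b over arpc1a stay above 1 in all libraries, at 4.17 to 14.8, while arpc5b over arpc5a, wasb over wasa and vaspa over vaspb cross 1.

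Genes that act with these but fall outside the rule were taken from 6 lists of 107 symbols, of which 82 rows were tested: 55 were above and 27 below 0, with a median log2 fold change of 0.16 and 0 calls in edgeR or DESeq2. The monomer-binding thymosin gene tmsb4x was at 1300.0, 3829 and 4908 CPM in controls and 2369, 5377 and 2379 CPM in the morpholino group, low in control replicate 1. The myosin light chain gene myl12.1 was at 578, 1283 and 977 CPM in controls against 613, 1456 and 937 CPM (0.08 ± 0.46), and the crosslinker gene actn4 at 354, 568 and 345 CPM in controls against 537, 573 and 689.8 CPM (0.51 ± 0.42). The WAVE complex gene cyfip1, a partner that binds Rac, was at 114, 217 and 199 CPM in controls against 46.2, 228 and 183 CPM (-0.21 ± 0.55). For the Rac and Cdc42 effector kinase gene pak2b the levels were 161, 169 and 171 CPM in controls and 80.5, 141 and 110.2 CPM with the morpholino, a log2 fold change of -0.60 ± 0.46 (unadjusted p = 0.214, adjusted p = 0.9999 in edgeR). All 3 morpholino levels of pak2b lay below all 3 controls, as in 4 of the 82 rows (4.88%, against 5.35% of all rows), and 2 of the 82 lay above (2.44% against 2.09%), so these shares are near the background.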

How the data were processed

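The authors deposited a table per library with raw read counts per gene and FPKM values, per the file headers. The submitters' processing notes name Trimmomatic, HISAT2 2.0.5, HTSeq, edgeR, DESeq2 1.16.1 and the build GRCz11, with no role or order. The annotation release, strand use and treatment of multi-mapping reads were not given in sources used here, so counts of near-identical, overlapping or antisense genes are uncertain. Counts were tested in R 4.3.3 with edgeR 4.0.16 (filterByExpr, minimum count 10, TMM, robust quasi-likelihood, two-sided), with Benjamini-Hochberg adjustment over all 16637 rows and a threshold of 0.05. Levels are TMM-scaled CPM, apart from marker sums, the limits for a count of 0 and the unnamed model at coro1a, which use library totals. The SE of a log2 fold change is its size over the root of the F statistic. DESeq2 1.42.0, limma-voom (limma 3.58.1), other scalings and filters, a replicate block and leaving out libraries were alternatives. The code was tested on simulated data. The pass limits were set only for a smaller spread between libraries than in these data. The simulated test therefore does not show what changes could be found here. The members, the gene lists and the tests were chosen with earlier results of these data known. Genes are named where they led their role by level per kilobase, are known for leukocyte use, had the 6 smallest p-values or led a list of partner genes; others are said to have been chosen later. Some genes that the rules take are not reported here, though counts over all members include them.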

Additional observations from a re-analysis of the deposited data

How the results depend on the processing

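In every alternative run 0 actin genes were called. The number of rows called was 140 in DESeq2, 2 without a filter on low counts and 0 to 2 when single libraries were left out. The median log2 fold change of the actin genes was 0.22 with library totals alone and -0.16 to 0.22 when single libraries were left out, negative without control replicate 1 or morpholino replicate 2. Genes whose groups did not overlap numbered 3 (4.11%, against 7.44% of all rows) and 5 with library totals alone (6.85% against 6.92%). They numbered 4 to 13 when single libraries were left out (5.33% to 17.3%, against 13.9% to 17.6% of all rows). Without both replicate 1 libraries they numbered 25 (33.8% against 32.7%), and fewer libraries make separation easier. The level of actb2 per kilobase was 2131 CPM and its deposited FPKM 8355, since the latter uses a shorter length.

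Whether replicate numbers pair the samples could not be decided. Deviations of same-numbered libraries correlated at 0.15, 0.122 and 0.0242. For control replicates 1 and 2 the same-numbered library gave the highest correlation, while control replicate 3 correlated best with morpholino replicate 2 (0.0509). Deviations from means of 3 libraries cannot show pairing or its absence. With the replicate block 0 rows and 0 actin genes were called, their median was 0.02, arpc1b was at 0.029 and abi3a at -0.59.

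Of 31 genes named by the rule and reported here, 10 kept their sign in every alternative, and 53 of 463 values had the opposite sign; the cause was not tested. With library totals alone wasf2 was at 0.0071, arpc1b at 0.13, fmnl1a at 0.10 and pfn1 at 0.00052. In limma-voom arpc1b was at 0.18, fmnl1a at 0.051, wipf1b at 0.085 and pfn1 at 0.045. Without mitochondrial, haemoglobin and ribosomal protein rows tmsb4x was at -0.012. Without both replicate 1 libraries wasf2 was at 0.33, coro1ca at 0.57, rac2 at -0.22, cdc42ep3 at -0.17, fmnl1a at 0.08, wipf1b at 0.06, znf711 at 0.13, tmsb4x at -0.17 and evlb at 1.1. When single libraries were left out, values ranged from -1.25 to 0.26 for wasa, -0.31 to 0.92 for mpx, -0.16 to 0.63 for lcp1, -1.30 to 0.38 for wasf2, -1.13 to 0.082 for wasb, -0.51 to 0.29 for arpc1b, -0.48 to 0.50 for coro1ca and -0.70 to 0.0088 for actb2. They ranged from -0.18 to 0.56 for rac2, -0.56 to 0.29 for arpc5a, -0.65 to 0.21 for cyfip1, -0.38 to 0.40 for fmnl1a, -0.60 to 1.96 for abi3a, -0.63 to 0.33 for wipf1b, -0.58 to 0.37 for tmsb4x, -0.67 to 0.15 for pfn1, -0.18 to 0.80 for vaspa, -1.66 to 0.61 for evlb, -0.35 to 0.36 for myl12.1, 0.080 to 0.82 for cdc42ep3 and -1.87 to -0.41 for znf711. Morpholino replicate 1 had the fewest counts of all libraries, and the part of depth in these values was not tested.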
